A study of Rattus norvegicus with 12 samples.

Results

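Broad m6A regions of the rat retina were examined as the stretches of RNA in which antibody-enriched signal ran on for 1000 bases or more in every animal. The 6 peak lists of the series, 1 per animal, were merged wherever called regions shared at least 1 base, and 7098 of the 12467 resulting regions were present in every list. A union region counted as broad when the longest called region in it was at least 1000 bases in each of the 6 lists. This rule found 275 regions, or 3.87% of the shared regions. A window of chromosome 18 was outside the rule, and 1 region of that window would otherwise have met it. The regions were thus chosen by their called width and their presence in every list, so width is given as a description and carries no test.

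N6-methyladenosine, or m6A, is a methyl mark set on adenosines of mRNA by the METTL3-METTL14 writer complex, mostly within a short consensus called DRACH, and it is read by YTH-domain proteins that affect splicing, decay and translation. In MeRIP-seq, fragmented RNA is pulled down with an antibody to m6A and sequenced beside untreated input RNA. The method sees the mark at the scale of its fragments rather than at single bases, so adjacent marked adenosines can appear as 1 enriched region with several local maxima, here called summits.

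The series compared male Sprague-Dawley rats of about 100 g that received streptozotocin with rats that received citrate buffer only. Streptozotocin is toxic to pancreatic beta cells, and it was injected intraperitoneally at 60 mg/kg after a 12 h fast on 5 days in a row. Rats with a fasting blood glucose over 16.7 mmol/L, tested 1 week after the last injection, were taken as diabetic. Diabetes was induced chemically, although the labels give WT and Diabetic as genotypes. RNA was cut to about 100 nt before immunoprecipitation (IP). Each group had 3 IP libraries, each with its own input, and the differing body weights in the labels mark them as separate animals. The age of the rats and the time at which retinas were taken are not given in the sources used here. The lists carry no gene names, so the retinal origin of the RNA could not be checked against marker genes, and regions are given by position only.

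For each animal the caller scaled the larger of IP and input to the smaller, which had between 8175227 and 12354616 reads and was on average larger in diabetic animals (exact two-sided permutation p = 0.2, n = 3 each). Control replicate 3 stood apart from its group with the longest control list (10160 regions against 9082 and 9103), the widest regions and the highest pileup. Each group comparison below is therefore also given without it where that matters.

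The broad regions were few but wide enough to hold over 10% of the bases of each m6A map. They were 2.61 to 3.03% of the regions of a list and held 10.1 to 11.6% of its covered bases and 7.96 to 9.12% of its summits. Their longest called regions summed to 397, 380 and 425 kb in the control lists and to 398, 415 and 408 kb in the diabetic ones, in the order of replicates 1 to 3 that is kept throughout. Broad regions common to all lists made up 71.8, 78.1 and 52.0% of all regions of at least 1000 bases in the control lists and 65.8, 57.9 and 64.3% in the diabetic lists. Of the 616 union regions that reached 1000 bases in at least 1 list, 276 did so in all 6, the region in the chromosome 18 window included, and 120 in a single list. Only 2 reached it in all diabetic and no control lists, and 3 in all control and no diabetic lists.

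Most broad regions had nearly the same extent in every animal. The coefficient of variation of width over the 6 lists had a median of 2.77% and lay below 10% for 214 of the 275 regions. The other 61 regions varied more, up to 50.5%. In 55 of these 61, the caller had split the union region into more than 1 called region in at least 1 list, which was the case for 4 of the 214 stable regions. Among regions with a coefficient of variation of 10% or more, unequal widths thus mostly went with splitting by the caller.

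Over the 6 lists, the median width of a broad region ran from 1021 to 3204.5 bases, with a middle value of 1341.5 bases. In each of the 6 lists, 62 regions were at least 1500 bases wide and 11 were at least 2000 bases wide. The widest lay on chromosome 16 from 85334735 to 85337963. It measured 3158, 3198 and 3214 bases in controls against 3212, 3206 and 3203 bases in diabetic animals, so that its extent was nearly the same in all animals. It held 10 or 11 summits in each list.

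Chromosome 16 also held the next 2 regions in width. The region from 14313376 to 14316247 measured 2843, 2834 and 2861 bases in controls against 2844, 2861 and 2850 in diabetic animals. The region from 10278001 to 10280884 measured 2819, 2766 and 2881 bases in controls against 2736, 2829 and 2783 in diabetic animals. Both were unbroken in all 6 lists, and the one from 10278001, whose width varied most of these 3, had exactly 8 summits in each.

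Of the other 7 among the 10 widest, 6 were split in at least 1 list. On chromosome 7, the region from 114207370 to 114210884 had a longest called region of 3150, 2101 and 2428 bases in controls against 2155, 3285 and 3191 bases in diabetic animals. It was unbroken in control replicate 1 and diabetic replicates 2 and 3 and fell into 2 called regions in the other lists, and the groups overlap. On chromosome 15, the region from 47378703 to 47382257 measured 3358, 1791 and 2766 bases in controls against 1741, 2803 and 2808 in diabetic animals, and it was a single called region only in control replicate 1. Those on chromosome 11 from 31815271 to 31818036 and on chromosome 2 from 145174481 to 145177081 were split only in control replicate 2, where they measured 1378 and 1728 bases against at least 2720 and 2500 in each other list. The region on chromosome 8 from 33386624 to 33389243 was split only in diabetic replicate 3, at 1401 bases against 2465 to 2620. The region on chromosome 3 from 71261080 to 71263716 was unbroken in all 6 lists, at 2457 to 2604 bases. The tenth in rank, on chromosome 7 from 15024040 to 15026519, measured 1609 and 1601 bases in control replicates 1 and 2, where it was split, and 2456 to 2476 bases in the 4 other lists.

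**Figure D1:**
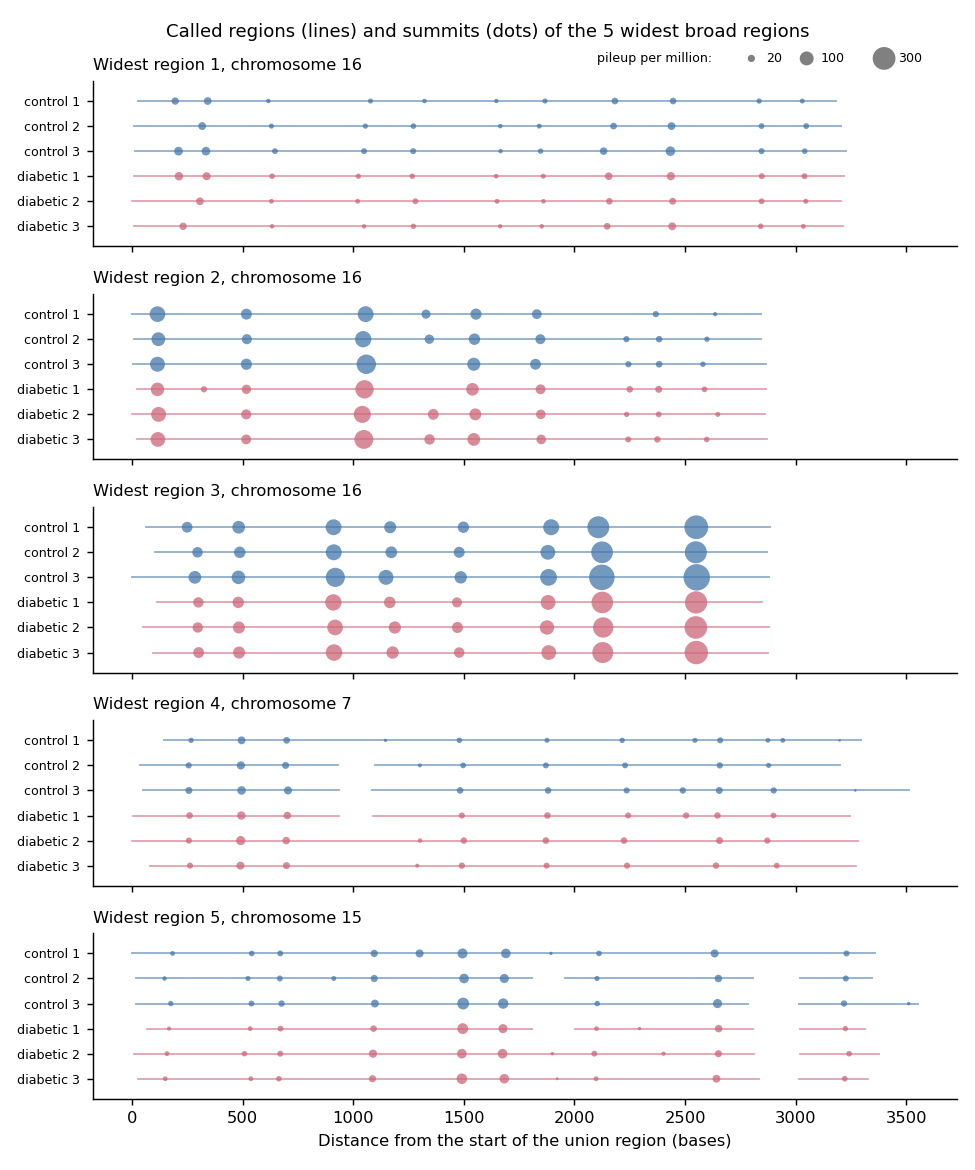
Called regions (lines) and summits (dots, area in proportion to pileup per 1000000 reads) of the 5 widest broad regions in the 6 libraries, against distance in bases from the start of the union region. Summits stack in columns across animals of both groups, and the lower regions are split by gaps in some lists that are bridged in others.

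At the threshold, the rule separated regions that hardly differed. Just inside, the region on chromosome 9 from 66673185 to 66674339 had its lowest width at exactly 1000 bases, in diabetic replicate 2, and 1008 to 1152 bases in the other lists. Just outside, the region on chromosome 8 from 118334437 to 118335513 had 999 bases in diabetic replicate 1 and 1017 to 1073 in the others. The 5 regions closest to the threshold on the inside had lowest widths of 1000 to 1003 bases. Those on the outside had 997 to 999, and 72 broad regions fell below 1100 bases in some list.

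Median width did not differ between control and diabetic retinas by more than the spread between animals. The median over the 275 regions was 1310, 1269 and 1416 bases for controls against 1309, 1370 and 1345 bases for diabetic animals. The diabetic values lie inside the control range, of which control replicate 3 is the upper end and control replicate 2 the lower. Group means were 1332 ± 75.9 and 1341 ± 30.7 bases (SD, n = 3 each), a difference of 9.67 bases that is well under either SD. Its sign rested on single libraries, since it was -7.0, -6.75 and -4.83 bases without control replicate 1, control replicate 2 and diabetic replicate 2, and it was 51.8 bases without control replicate 3. Of the 275 regions, 99 were widest in control replicate 3 and 106 were narrowest in control replicate 2.

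**Figure D2:**
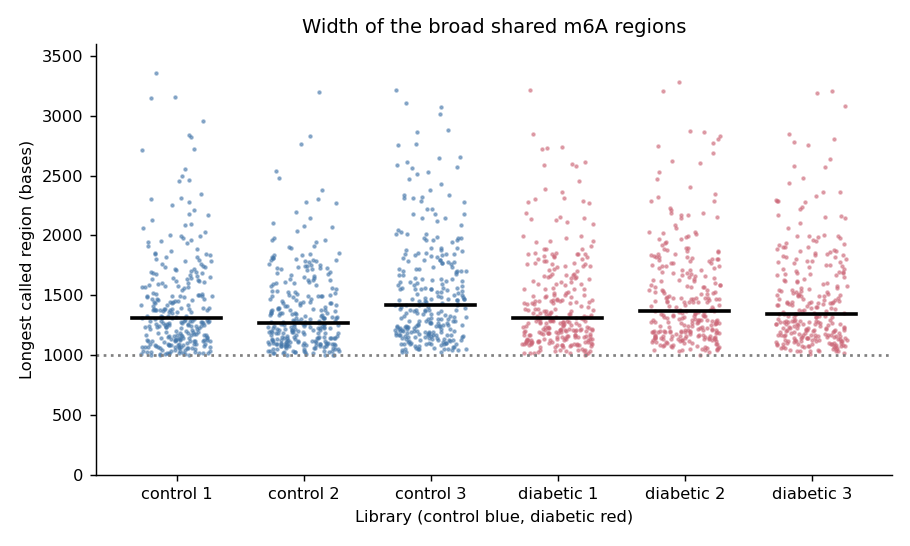
Longest called region in bases of each of the 275 broad regions in each library (dots, control blue, diabetic red), with the median as a black line and the threshold of 1000 bases dotted. Medians lie between 1269 and 1416 bases, with both ends set by control libraries.

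Region by region, widths leaned to the diabetic side, as did those of shared regions at large. In 29 broad regions (10.5%) all diabetic widths exceeded all control widths, where 12.6% of the 7098 shared regions did so. In 3 broad regions (1.09%) all diabetic widths lay below the control widths, against 1.49% of shared regions. Mean width was higher in diabetic animals in 181 broad regions (65.8%) and in 70.8% of shared regions. Lists differ in how wide they call all regions: other shared regions had a median width of 320, 317 and 381 bases in controls against 353, 379 and 354 in diabetic animals. With each width divided by the median width of shared regions of its list, an alternative added after seeing the data, the lean turned to the control side. Then 3 broad regions (1.09%) lay above and 16 (5.82%) below, against 5.33% and 7.3% of shared regions. This division takes broad widths to grow in proportion to the median of the list. Median widths averaged 339 bases in controls and 362 in diabetic animals for other shared regions, but 1332 and 1341 for broad regions. The turn to the control side is therefore not read as a result.

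Among the 29 regions in which all diabetic widths exceeded all control widths, the 5 with the largest difference of group medians are given here, and 3 of these were of the split kind. On chromosome 8, the region from 79274234 to 79277007 measured 1360, 1149 and 1435 bases in controls against 2724, 2774 and 1465 in diabetic animals. It was a single called region only in diabetic replicates 1 and 2, and the remaining diabetic animal was close to the widest control. On chromosome 2, the region from 44314250 to 44316193 measured 1500, 1493 and 1503 bases in controls against 1890, 1923 and 1923 in diabetic animals. It was split in all control lists and unbroken in all diabetic lists.

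The region on chromosome 1 from 247901113 to 247902963 measured 1376, 1343 and 1768 bases against 1818, 1807 and 1831. On chromosome 17 from 49920699 to 49921976 the widths were 1008, 1015 and 1045 against 1278, 1272 and 1093 bases, and on chromosome 4 from 8188655 to 8190436 they were 1596, 1565 and 1618 against 1682, 1744 and 1774 bases. Both of the latter were unbroken in all lists. Narrower in diabetic animals was a region on chromosome 2 from 196342860 to 196344291, with 1432, 1343 and 1369 bases in controls against 1151, 1163 and 1141 in diabetic animals. The remaining pair in this direction, on chromosome 18 from 27605542 to 27606720 and on chromosome 7 from 12439780 to 12442095, had no overlap either but lay close together, with 1140 to 1179 against 1110 to 1138 bases and 2302 to 2315 against 2279 to 2291 bases.

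Every broad region had several summits in every list. The number ran from 2 to 12, its median was 4 in each list, and 250 of the 275 regions had at least 3 summits in each list. Control lists averaged 4.56, 4.27 and 4.64 summits per broad region and diabetic lists 4.44, 4.60 and 4.55. Group means were 4.49 ± 0.191 and 4.53 ± 0.0837 summits (SD, n = 3 each), and the difference of 0.0436 summits is smaller than the spread between animals (exact two-sided permutation p = 0.9; Benjamini-Hochberg adjusted p = 0.9 over 5 group comparisons). It was -0.0905 summits without control replicate 2.

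**Figure D3:**
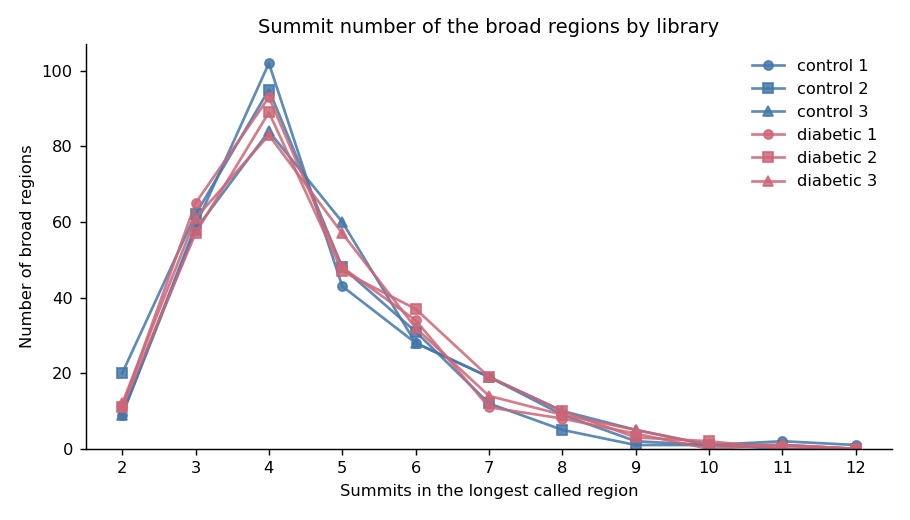
Number of the 275 broad regions with 2 to 12 summits in their longest called region, 1 line per library (control blue, diabetic red). All 6 lines peak at 4 summits, and control replicate 2 has the most regions with 2.

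Summit number followed width. Regions with a median width below 1250 bases (102 regions) averaged 3.55 ± 0.0735 summits (SD over 6 lists), those of 1250 to below 1500 (72) 4.14 ± 0.0683, those of 1500 to below 2000 (75) 5.30 ± 0.207, and those of 2000 bases or more (26) 7.03 ± 0.539. Spearman's rho of width and summit number over the 275 regions was 0.667 to 0.757 within single lists, as a description, since both come from the same called region. Per kb of region, control lists had 3.16, 3.09 and 3.0 summits and diabetic lists 3.07, 3.05 and 3.07. The difference of group means, 3.08 ± 0.0793 against 3.06 ± 0.00663 (SD, n = 3 each), was within the spread of controls (exact two-sided permutation p = 0.7, adjusted p = 0.9). Shared regions of 500 to 999 bases in each list (1014 regions) had 3.17 to 3.39 summits per kb, higher than the broad regions in each library.

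The number of summits was identical in all 6 lists for 54 regions (19.6%), differed by at most 1 for 164 and by 3 or more for 40. All diabetic counts exceeded all control counts in 7 regions (2.55%, against 0.676% of shared regions). These shares are not like for like. All broad regions had at least 2 summits in each list, but only 1566 of the 6776 other shared regions outside the chromosome 18 window did. Regions with few summits have little room to differ in count, and the share over those 1566 was not computed. The opposite held in 1 region (0.364%, against 0.296%).

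The regions with the most summits were those on chromosomes 16 (from 85334735 and from 14313376), 15 and 11 named above and a region on chromosome 3 from 22058646 to 22060950. The last had 9, 6 and 8 summits in controls against 9, 9 and 8 in diabetic animals. It was split in control replicate 2, the list with 6.

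Within a region, neighbouring summits lay about 300 bases apart. The median spacing of a region had a median of 299.5, 307 and 311 bases in controls against 300, 300 and 302 bases in diabetic animals. Group means were 306 ± 5.84 and 301 ± 1.15 bases (SD, n = 3 each), a difference of -5.17 bases that is under the SD of controls (exact two-sided permutation p = 0.4, adjusted p = 0.9). Over all neighbouring summits of a list (900 to 1000 pairs), the lower quartile of the distance was 210 to 221 bases and the upper quartile 386 to 398 bases. Only 5% lay below 145 to 154 bases. The caller extended reads to 118 to 125 bases and RNA fragments were about 100 nt long. Whether these lengths bear on the spacing was not tested.

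Spacing hardly changed with width, from 299.75 bases in the narrowest class above to 302.625 in the widest, so wider regions held more summits at a similar distance. Other shared regions with at least 2 summits in each list (1566 regions) had median spacings of 247 to 256 bases. Their distances are capped by their smaller width, so the 2 sets were not tested against each other.

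**Figure D4:**
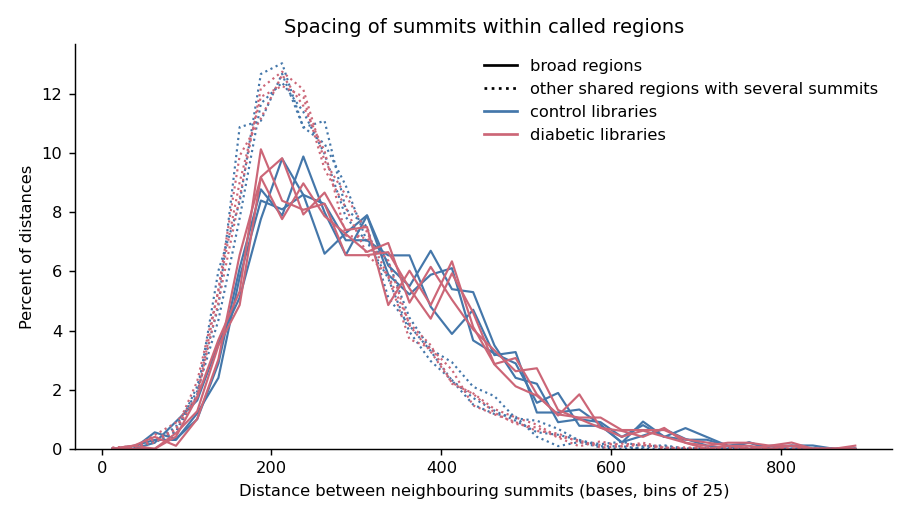
Distance between neighbouring summits of a called region in bins of 25 bases, as percent of all distances of a library, for broad regions (solid) and for other shared regions with several summits (dotted). Control (blue) and diabetic (red) libraries overlie each other, and broad regions have more distances over 400 bases.

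Single regions departed from this spacing in most or all animals. Among regions with at least 3 summits in each list, the longest spacing was found on chromosome 8 from 119524502 to 119526380, with 3 summits in every list and spacings of 566.5 to 611 bases. A region of chromosome 16 (73946480 to 73947971) came next, at 389 to 551.5 bases over the lists. One of chromosome 10 (88378695 to 88380483) had 4 summits in every list at spacings of 493 to 516 bases. Then came regions of chromosome 3 (86817955 to 86819349) and chromosome 6 (23338683 to 23341702), with medians of 493.5 and 475.25 bases over the lists, although control replicates 1 and 2 had 296 and 246 bases in the former and control replicate 1 had 259 in the latter. The closest summits were those on chromosome 9 from 43049773 to 43050955, with a median of 176.5 bases over the lists and 160 to 319.5 bases in single lists. Medians of 180 to 185.5 bases were found for regions of chromosome 12 (37900978 to 37902813), chromosome 6 (105664850 to 105666460), chromosome 2 (118915483 to 118916935) and chromosome 14 (28392978 to 28394332).

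Summits recurred at the same places in different animals. Summits of all lists were joined into 1 position when they lay within 25 bases of the next, which gave 1757 positions in the broad regions. All 6 lists had a summit at 947 of these (53.9%), and such a position spanned a median of 19 bases over the animals. At least 2 such common positions were present in 268 of the 275 regions and at least 5 in 44, with up to 9 in the chromosome 15 region named above. The median distance between neighbouring common positions was 365.25 bases (quartiles 262.5 and 485.375, 674 pairs). Positions found in 1 list numbered 331 and were weaker, with a median pileup of 10.2 per 1000000 reads against 25.9 at common positions.

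From pair to pair of libraries, 71.3 to 88.6% of the summits of one list had a summit of the other within 25 bases. Windows of that size around the summits of a list covered 15.3 to 16.2% of the bases of its broad regions. The share averaged 80.7% between control and diabetic libraries, 77.4% within controls and 84.3% within diabetic animals, so that the value between groups lay between those within them. Control replicate 1 was the lowest, at 74.0% on average over the other libraries, against 80.4 to 84.2%. Other shared regions with several summits had shares of 75.9 to 83.7% per library, with such windows over 18.3 to 19.6% of their bases. Without adjustment for this unlike cover, the broad regions differed from these other regions by 0.0644 percentage points on average. They were higher in 4 of 6 libraries (exact two-sided sign-flip permutation p = 0.906, adjusted p = 0.906 over 4 such tests).

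Few positions separated the groups. A summit in all diabetic and no control lists was found at 10 of the 1757 positions (0.569%), and at 0.52% of the 16537 positions of all shared regions outside the chromosome 18 window. A summit in all control and no diabetic lists was found at 3 positions (0.171%, against 0.206%).

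The highest summit of a region was the same one in most cases. It lay within 50 bases in all 6 lists in 187 regions (68%) and moved by over 200 bases in 64 regions. For other shared regions with several summits the share within 50 bases was 60.7%. In the widest region on chromosome 16 the highest summit moved by 2230 bases between lists. There, 2 summits of control replicate 2, at 317 and 2439 bases from the start of the union region, differed little in pileup. They had 42.1 and 41.9 per 1000000 reads. The pileups at these places differed more in other lists, with 40.9 and 30.1 in control replicate 1 and, the other way round, 52.2 and 62.3 in control replicate 3. In the chromosome 16 region from 10278001 it stayed within 4 bases. The highest summit lay in the first or last 25% of the called region in 37.1 to 41.1% of broad regions per list. These end parts are together as long as the middle of the region. For other shared regions with several summits the share was 37.0 to 45.5% per list.

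Pileup is the number of extended reads over a base after scaling, and the scaled pileup used here is that number per 1000000 reads of the smaller library of the animal. The highest summit of a broad region had a median scaled pileup of 38.3, 39.5 and 53.2 for controls against 45.5, 46.5 and 45.6 for diabetic animals. Control replicate 3 is the highest of all and the other controls are the lowest, so the groups overlap. Means were 43.7 ± 8.25 and 45.9 ± 0.546 (SD, n = 3 each; exact two-sided permutation p = 0.8, adjusted p = 0.9). The difference of 2.23 became -1.18 without control replicate 1, -0.686 without control replicate 2 and 6.98 without control replicate 3 (exact permutation p = 0.8, 0.8 and 0.1; the smallest p for 2 against 3 is 0.1).

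Other shared regions had median scaled pileups of 12.1, 12.4 and 15.7 in controls against 14.3, 14.2 and 13.3 in diabetic animals. Broad regions thus had 3.16 to 3.42 times their pileup in each list, and control replicate 3 was the highest in both sets. Pileup comes from the same called regions as the width that chose them, so this is given as a description. Over the broad regions, Spearman's rho of width and pileup was 0.229 to 0.324 within single lists. The lowest summit of a broad region had a median pileup of 10.3 to 12.2, and the ratio of highest to lowest summit had a median of 3.40 to 3.78.

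By fold enrichment, the authors' ratio of pileup to local background, the median broad region stood at percentile 91.3 to 93.6 of its list. In each of the 6 lists 114 regions were in the top 10%, and 5 regions fell below percentile 50 in some list.

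The region with the highest pileup lay on chromosome 1 from 221157017 to 221158377. The scaled pileup of its highest summit reached 992, 788 and 1239 in controls against 937, 823 and 1008 in diabetic animals, and the groups overlap. The local background from input there was 53.9 to 69.4 times the floor of the caller, the highest of all broad regions. That floor is itself higher than a mean over the whole genome, as described with the processing. With this background, the fold enrichment was 6.83 to 8.78 in the 6 lists. Input coverage was thus high there as well. Width ranged from 1095 to 1358 bases and summits from 3 to 4.

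Next in pileup was the region on chromosome 16 from 10278001 to 10280884, with 384, 332 and 477 in controls against 339, 349 and 373 in diabetic animals. It was followed by a region on chromosome 11 from 46629070 to 46630309, with 239, 285 and 330 in controls against 345, 279 and 315 in diabetic animals. The next 2, on chromosome 5 from 15054415 to 15056228 and from 15056553 to 15058244, lie 324 bases apart. They reached 252 to 398 and 254 to 366, and in both the highest value was that of control replicate 3. Backgrounds at these 4 regions were 6.33 to 16.6 times the floor.

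Pileup of single broad regions was compared between groups with limma on log2 scaled pileup, centred on the median of each library, over all 7098 shared regions. With Benjamini-Hochberg adjustment, no broad region passed 0.05, and 2 of the 7098 did (0.0282%). At an unadjusted p under 0.05 there were 37 broad regions (13.5%), a share near the 13.6% of all shared regions. Of these, 23 (8.36%, against 6.8%) were higher and 14 (5.09%, against 6.79%) lower in diabetic animals. The log2 change had a median of 0.041 over the broad regions, with quartiles of -0.095 and 0.16, and of 0.0052 over all shared regions, with quartiles of -0.15 and 0.15. The median standard error was 0.142 for a broad region and 0.150 over all shared regions. Without overlap between groups, 41 broad regions (14.9%, against 10.2%) were higher and 22 (8%, against 9.92%) lower in diabetic animals. These shares are not like for like, since broad regions had higher pileup and a smaller standard error, and centring used all shared regions. What these add to the unlike shares was not tested.

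**Figure D5:**
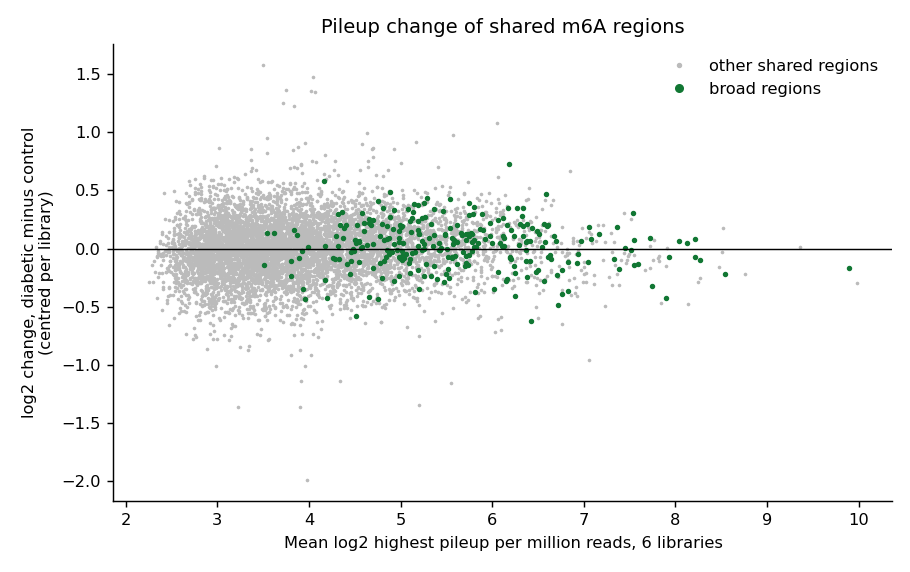
Log2 change of the highest scaled pileup, diabetic minus control, centred per library, against its mean over the 6 libraries, for the 275 broad regions (green) and the other shared regions (grey). Broad regions lie towards high pileup and within -0.62 and 0.73 of change.

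The broad regions at both ends of this range are named here after their values were seen. On chromosome 1 from 53496354 to 53497990 the scaled pileup was 56.2, 40.5 and 74.5 in controls against 99.2, 78.6 and 112 in diabetic animals, without overlap. Its log2 change was 0.73 ± 0.19 (SE; limma adjusted p = 0.198). On chromosome 6 from 23338683 to 23341702 the scaled pileup was 129, 58.6 and 148 in controls against 64.2, 74.7 and 72.9 in diabetic animals, and the groups overlap. Its log2 change was -0.62 (limma adjusted p = 0.322). In control replicates 1 and 3 this region was a single called region of 2956 and 3017 bases, and in the other 4 lists it was split into 3 with a longest one of 1173 to 1251 bases. The pileup of the longest called region is thus taken over different stretches in these lists. The lowest adjusted p of a broad region, 0.187, belonged to the region on chromosome 3 from 86817955, with a scaled pileup of 12.2, 13.4 and 18.05 in controls against 25.2, 19.1 and 23.6 in diabetic animals (log2 change 0.58 ± 0.15, SE).

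Broad regions more often had input coverage above the floor. The local background, computed back from pileup and fold enrichment, exceeded the floor of the caller by more than 1% in 42.5, 44.7 and 45.1% of broad regions in controls and in 53.1, 44.4 and 45.5% in diabetic animals. In other shared regions the shares were 16.1, 18.3 and 19.0% and 23.1, 17.6 and 17.6%. Broad regions were higher in 6 of 6 libraries, by 27.3 percentage points on average (exact two-sided sign-flip permutation p = 0.0312, the smallest that 6 libraries allow; adjusted p = 0.0417 over 4 such tests). Against shared regions of 500 to 999 bases the difference was 19.9 points, also in 6 of 6 libraries (exact sign-flip p = 0.0312, adjusted p = 0.0417). The same regions were compared in all 6 libraries. These p-values thus measure only how the difference repeated over libraries, and not its spread over regions. These shares were compared after seeing that the medians were at the floor in both sets, except for 1.10 times the floor for broad regions of diabetic replicate 1. The test of those medians is 1 of the 4, and nothing is drawn from it. Input over a broad region enters its own local background, and pileup was higher in broad regions too, so their parts in this difference were not tested.

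The number of regions of at least 1000 bases in a list overlapped between groups. The exact permutation test of these numbers cannot go below 0.1 for 3 against 3. Controls had 383, 352 and 529 such regions and diabetic animals 418, 475 and 428. The highest and the lowest counts are both of controls. Means were 421 ± 94.5 and 440 ± 30.4 (SD, n = 3 each; exact two-sided permutation p = 0.8, adjusted p = 0.9). The difference of 19 regions was 72.8 without control replicate 3 (exact permutation p = 0.1) and turned to -0.167 and -15.7 without control replicates 1 and 2.

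Broad regions were found on 20 chromosomes, numbers 1 to 20, and on none of X, Y and the unplaced scaffolds. Y had only 2 shared regions and the scaffolds only 1, too few for this absence to tell anything. Chromosome 1 held 40 of them, chromosome 3 held 26, chromosome 5 held 22 and chromosome 7 held 20. Chromosome 18 had 11 of 242 shared regions, but 47 shared regions of its left-out window could not count as broad, so it was not ranked. As a share of the shared regions of each other chromosome, broad regions were most frequent on chromosome 16, with 13 of 239 (5.44%, Wilson 95% interval 3.21 to 9.08%), and on chromosome 1, with 40 of 773 (5.17%, 3.82 to 6.97%). Both intervals include the 3.87% of the whole set. Chromosome 12 had 2 of 243 (0.823%, 0.226 to 2.95%), below the share of the whole set.

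Chromosome X had 0 of 130, which allows a share of up to 2.31% (3 counts) or, by the Wilson interval, 2.87%. Its shared regions were narrower than those of the numbered chromosomes, with a median width of 307.75 bases against 328 to 391.5. On X, 9 union regions reached 1000 bases in at least 1 list, and the widest of its shared regions fell to 969 bases in its narrowest list. Regions on a chromosome are not replicates, so these shares were not tested, and intervals cover counting error only.

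Some broad regions were neighbours. Another broad region lay within 5 kb for 14 of the 275 regions and within 10 kb for 16. The closest pair lay on chromosome 3, from 164938982 to 164940347 and from 164940560 to 164942456, 212 bases apart. Pairs on chromosome 16 from 73944859 to 73946253 and from 73946480 to 73947971 (226 bases apart) and on chromosome 5 (324 bases apart, named above) came next. The next 2 pairs lay on chromosome 9, from 113662359 to 113664075 and from 113664671 to 113666645, and on chromosome 5, from 50283505 to 50284739 and from 50286309 to 50287966. They were 595 and 1569 bases apart.

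Another shared region of any width lay within 1 kb of 67 broad regions (24.4%), as it did for 21.5% of the other shared regions. At the other end, 54 broad regions (19.6%) were over 100 kb from any other shared region, as were 22.6% of the other shared regions.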

How the data were processed

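MACS2 2.1.0, BWA 0.7.12, fastp 0.19.11 and CASAVA are listed in the submitters' processing notes. Peaks were called by the authors per animal, per the file headers, with IP set against its own input, at a q cut-off of 0.05, without a model, with all duplicates kept, and with the larger library scaled to the smaller. The deposited pileup is a coverage signal at each summit. The deposited fold enrichment is a ratio of pileup to the highest of a floor and of input averages over 1 and 10 kb. The floor spreads the extended reads of the smaller library over the effective genome size of the caller. That size is smaller than chromosome 1 alone, so the floor is higher than a mean over the whole genome. The deposited −log10 p and −log10 q columns, whose headers are damaged, were told apart by order and values. The deposited length, in bases, is used as width. BWA does not split reads over introns, and no strand or genome build is given, so coordinates are those of the lists, 1-based, and genes, transcript parts and sequences were not analysed here.

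Lines with equal chromosome, start and end were joined into 1 region. Summits, spacing and pileup are those of the longest called region of a list. Group means of library medians (of means for summit number, whose medians tie) were tested by exact two-sided permutation, which cannot go below 0.1 for 3 against 3. Broad and other regions were compared with sign-flip tests over the 6 libraries, which measure repeat over libraries and not over regions. Pileup was tested with limma 3.58.1 in R 4.3.3, tested on simulated data, and adjusted by Benjamini-Hochberg. Other values came from Python 3.11.15. Alternatives were widths of 800 and 1500 bases, a −log10 q of at least 5, other summaries and scalings of pileup, summits of all called regions, leaving out each library, and replicate number as a block. Regions are named by rank in width, pileup, summit number, spacing, group difference in width where groups do not overlap, distance to the threshold and distance to each other. The regions and these choices were set with earlier results of these data known.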

Additional observations from a re-analysis of the deposited data

How the results depend on the processing

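Broad regions numbered 520 with a width of at least 800 bases and 62 with at least 1500, as a looser or stricter rule must give, and 275 to 308 without 1 library. No broad region passed limma under any of the 13 alternatives run. Among all shared regions, 44 passed without centring, 6 with the median pileup over summits, and 2 to 7 without 1 library, and the cause was not tested. The difference in summits was -0.0215 with at least 1500 bases. The difference in summit agreement was 0.648 points within 10 bases and -0.593 points within 50 bases, so its sign changed with the distance allowed. Without 1 library, the diabetic minus control differences ran from -7.0 to 51.8 bases in width, -0.0905 to 0.118 in summits, -8.5 to -2.58 bases in spacing, -1.18 to 6.98 in scaled pileup and -15.7 to 72.8 in regions of at least 1000 bases. Summit agreement ran from -0.158 to 0.455 points. The background share ran from 26.7 to 27.5 points, with an exact sign-flip p of 0.0625, the smallest for 5 libraries. The difference of median background ran from 4.86e-06 to 0.0196 times the floor. Its lowest value was that without diabetic replicate 1, the only list whose broad regions had a median off the floor. Nothing is drawn from the difference of medians. Under the replicate block the differences stay as they are and the exact p was 1.0 for summits, 0.5 for spacing, 1.0 for pileup and 0.75 for regions of at least 1000 bases (smallest possible 0.25). With the block limma passed 0 broad and 3 shared regions. Libraries with the same number had correlations of their deviations of -0.207, -0.0440 and 0.0406, so the numbers were not taken to pair animals. How much depth contributes to gaps and weak ends of broad regions was not tested.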
